A study of Cricetulus griseus with 16 samples.

Results

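The genes described here encode the proteins of the cytosolic ribosome. They were taken from a table of read counts of Chinese hamster ovary (CHO) cells by their names: Rpl or Rps followed by a number and, for some, one letter (A, L, X or Y), together with Rpsa and the stalk proteins Rplp0 to Rplp2. The rule found 33 of the 20824 genes listed, 15 with small subunit names and 18 with large subunit names. The list is not a complete ribosome. Of 79 symbols of canonical ribosomal proteins, 30 were found as rows, 14 of the small and 16 of the large subunit. These are not the same 30 genes as those tested below, which hold 15 large subunit genes and include the paralog Rps27l. The other 49 symbols were not analysed here, and 4423 rows carried an identifier without a symbol.

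CHO cells (ATCC CCL-61) are an ovary-derived hamster line. The cells were plated 24 h before treatment and kept at 37 °C, or heated to 40 °C for 1 h, to 40 °C for 6 h or to 42.5 °C for 1 h, with 4 biological repeats in each of these 4 groups, marked by the letters A to D. No genetic change or agent other than heat distinguished the groups, and all belonged to 1 cell line. Total RNA was sequenced, and the 16 libraries held between 10504192 and 14668365 counts.

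The cytosolic ribosome is built from a small subunit, which binds the mRNA and reads the codons, and a large subunit, which joins the amino acids. The mRNAs of its proteins are among the most abundant in growing cells, and most begin with a terminal oligopyrimidine (TOP) tract through which the mTOR pathway and the RNA-binding protein Larp1 set their translation and stability together. During heat shock, cells commonly slow translation as a whole while heat shock protein mRNAs are still made and translated, which makes the mRNAs of the ribosome itself of interest in a heat series.

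Of the 33 genes, 30 had enough counts to be tested in each comparison, with 947 to 46078 counts per library. The remaining 3 are paralogs whose expression is known mainly from specialised tissues. Rpl10l and Rpl39l, known from the testis, had 0 counts in all 16 libraries. Rpl3l, known from striated muscle, had 1 count in each of 3 libraries (40 °C for 1 h replicate B, 40 °C for 6 h replicate B and 42.5 °C replicate A). A floor of 3 counts corresponded to 0.205 to 0.286 CPM, the count of a gene scaled to the total of its library, so levels below it were not detectable at this depth. Values of single genes are given as CPM scaled by the TMM method, and sums over marker genes as CPM without that scaling. Differences are given as log2 fold changes with their standard error (SE). Levels are compared between libraries and not between genes, since the counts are not scaled by gene length.

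The cell type and the treatment were checked first. Of 5 genes chosen as typical of a mesenchymal-like adherent line such as CHO, all were found. Together they reached 5420 to 7350 CPM in each library, which does not identify the line itself. Vim, an intermediate filament protein, was 1 of these genes and had 1823 to 2684 CPM. Of 6 genes that mark leukocytes, endothelium or epithelium, 5 were found. Together they reached 0.571 to 2.2 CPM, and Krt5, a keratin, had 0.473 to 2.06 CPM. Ptprc was at 0 in 15 libraries and at 0.0776 CPM in the other. Hsph1, a heat shock chaperone, had 328, 323 and 319.9 CPM in 37 °C replicates A to C, 874, 449, 860.3 and 549 CPM after 1 h at 40 °C, 597, 1069, 705 and 636 CPM after 6 h at 40 °C and 1837, 2771, 1727 and 3768 CPM after 1 h at 42.5 °C. Every heated library was above every control library. Hsph1 and the other 3 heat-induced genes found (Hspb1, Dnajb1 and Zfand2a) were higher than at 37 °C after 1 h at 40 °C and at 42.5 °C, and 3 of the 4 were higher after 6 h at 40 °C, where Zfand2a had a log2 fold change of -0.17 (SE 0.099, edgeR adjusted p = 0.22).

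One control library stood apart in these genes. In 37 °C replicate D the ribosomal protein genes took 3.98% of all counts, against 2.87%, 2.83% and 2.86% in replicates A to C. All 30 tested genes were higher in D than in each of the other 15 libraries, heated ones included. Relative to the mean of A to C, D was higher by a median of 0.587 on the log2 scale. The differences ran from 0.303 for Rps2 to 0.965, a 1.95-fold difference, for Rplp1. In 15 of the 30 genes, D lay at least 1.5-fold above that mean, while 5.31% of 10317 genes did so and the median of those genes was 0.005. When A, B or C was held against the mean of the other two, the medians of the ribosomal protein genes were 0.025, -0.065 and 0.057, and 0 genes reached 1.5-fold.

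The difference of D was not limited to these genes. The chi-square statistic per degree of freedom between pairs of control libraries was 42.1 to 50 for pairs with D and 2.8 to 4.92 for the others. The study left 1 control out of its comparisons, and its table of selected genes holds counts identical to those of all libraries but D. The comparisons with 37 °C therefore used replicates A to C, and the counts of ribosomal protein genes and of the further lists are also given with D. Where the text gives no value with D for a single gene, the value is that of A to C alone. Comparisons among heated groups do not involve D.

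In the 15 libraries compared, the share of counts in ribosomal protein genes moved within a narrow band. It was 2.85% ± 0.024 (SD, n = 3) at 37 °C, 2.89% ± 0.05 (SD, n = 4) after 1 h at 40 °C, 2.79% ± 0.056 (SD, n = 4) after 6 h at 40 °C and 2.98% ± 0.014 (SD, n = 4) after 1 h at 42.5 °C. The 42.5 °C libraries, with 3.001%, 2.97%, 2.98% and 2.98%, lay above the other 11 libraries. The 40 °C for 6 h libraries had 2.84%, 2.82%, 2.71% and 2.79%, and the 40 °C for 1 h libraries 2.89%, 2.84%, 2.89% and 2.96%, so these groups overlapped with the controls. With D among the controls, the difference between 42.5 °C and 37 °C turned from 0.13 to -0.153 percentage points, a value chosen for calculation after seeing the data. These shares were not tested.

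**Figure D1:**
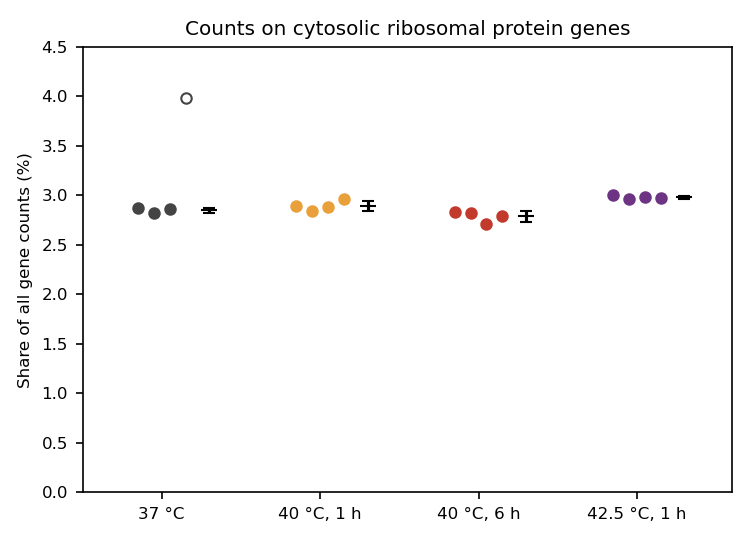
Share of all counts (%, y axis) in the ribosomal protein genes for each of the 16 libraries, grouped by treatment (x axis), with the mean and SD of each group taken without 37 °C replicate D, which is drawn as an open circle. Replicate D stands at 3.98%, the other 15 libraries lie between 2.71% and 3.001%, and the 4 libraries at 42.5 °C sit above the other 11.

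The comparison of 42.5 °C for 1 h with 37 °C asked what moderate heat did to these mRNAs. With replicates A to C as controls, 21 of 30 genes were higher (70%), 1 was lower (3.33%) and 8 did not pass (edgeR quasi-likelihood test, Benjamini-Hochberg adjusted p under 0.05). Among all 10470 genes tested, 20.8% were higher and 22.3% lower. Among the 2553 genes at least as abundant as the lowest of the 30 (95.4 CPM), the 30 included, 33.4% were higher and 18.5% lower. The changes were small: the median was 0.173 on the log2 scale, a 1.13-fold difference, the range was -0.128 to 0.369, and the median of the abundant genes was 0.05. A fold of at least 1.5 together with the adjusted p was reached by 0 of the 30 genes and by 7.51% of all genes. The log2 fold change was above 0 for 28 of the 30 and for 49.7% of all genes.

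This count rests on which controls are used and on the scaling. With D added to the controls, 0 genes were higher and 0 lower, against 6.82% and 11.4% of all genes, the median was -0.005, and 9 of the 22 called genes turned sign. With library totals in place of TMM factors, 10 genes were higher and 2 lower, against 11.5% and 31.4% of all genes, and the median was 0.1 while that of all genes was -0.075. Without D, the libraries did not disagree on direction: 27, 28, 25 and 28 of the 30 genes lay above the control mean in the 42.5 °C replicates A, B, C and D, with medians of 0.154, 0.173, 0.149 and 0.139. In 19 genes all 4 heated libraries lay above all 3 controls, in 1 gene below, and in 10 the groups overlapped. Of all genes tested, 23.1% lay above in this way and 22.9% below. These are pooled RNA samples of whole cultures, in which fewer cells of one state and less RNA per cell cannot be told apart.

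**Figure D2:**
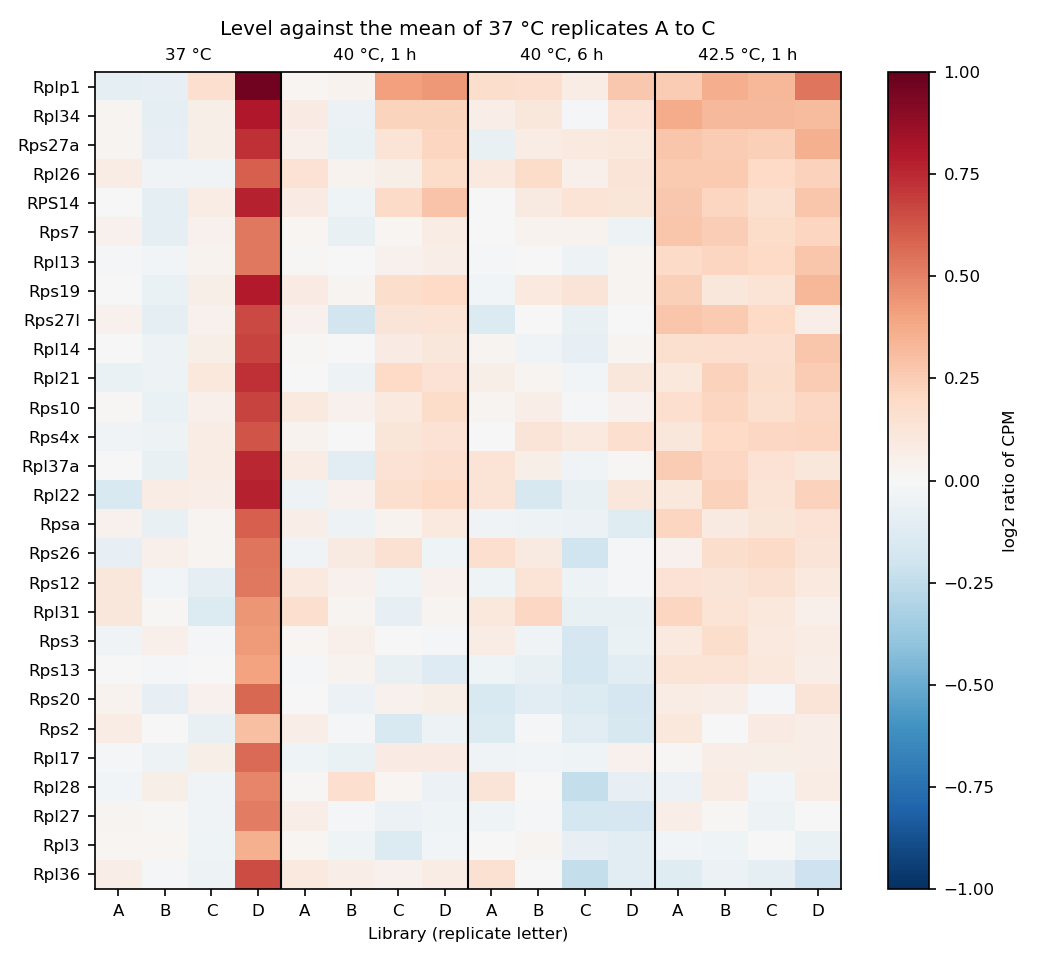
Log2 ratio of each library's CPM to the mean of 37 °C replicates A to C (colour) for 28 of the tested ribosomal protein genes (rows) in all 16 libraries (columns, grouped by treatment). The column of 37 °C replicate D is above the control mean in 28 of 28 genes, and the 42.5 °C columns are above it in 23 to 26 genes.

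Other properties of the 42.5 °C libraries differed from controls A to C as well. The 13 mitochondrially encoded genes took 3.71%, 3.80%, 3.72% and 3.55% of counts at 42.5 °C and 3.06%, 2.23% and 2.31% in control replicates A to C. They took 2.69%, 3.54%, 3.25% and 3.08% after 6 h at 40 °C. Control replicate D, which was not heated, had 3.31% and a TMM factor of 0.971. The TMM factors were 0.961 to 0.976 at 42.5 °C and 1.018 to 1.032 in controls A to C. The median total count at 42.5 °C, 10980907.5, was the lowest of the 4 groups. Of the 5 marker genes of the adherent line, Fn1, Anxa2 and S100a6 were also higher at 42.5 °C, by 0.25, 0.25 and 0.26 on the log2 scale. The summed level of the 5, in CPM without TMM scaling, was 6220 to 6550 against 5890 to 6230 in controls A to C. In control replicate D it was 7350 CPM. The part of these properties in the result was not tested. Without the mitochondrially encoded genes in the denominator, the difference in share between 42.5 °C and 37 °C was 0.17 percentage points.

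The large subunit gave 8 higher genes and 1 lower gene of 15, with a median of 0.171. Its stalk protein Rplp1, an acidic phosphoprotein that helps to recruit elongation factors, had the widest change. It stood at 422, 427 and 507 CPM in 37 °C replicates A to C (883 CPM in D) and at 541, 581, 569.7 and 654 CPM at 42.5 °C. All heated libraries were above A to C and all were below D. The log2 fold change against A to C was 0.37 (SE 0.066, adjusted p = 0.000396), and with D it was 0.08 (adjusted p = 0.832). Rplp1 also had the largest coefficient of variation of the 30 genes at 37 °C without D (10.6%) and at 42.5 °C (8.22%), and its controls A and B lay well below C.

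Rpl34, a large subunit protein, was steadier. It had 918, 844 and 936 CPM in 37 °C replicates A to C (1569.5 CPM in D) and 1164, 1124, 1125 and 1122 CPM at 42.5 °C. The means were 899 ± 48.8 (SD, n = 3) and 1134 ± 19.9 CPM (SD, n = 4), and the groups did not overlap. The log2 fold change was 0.33 (SE 0.041, adjusted p = 1.56e-05), the lowest adjusted p of the 30 genes, and with D it was 0.10 (adjusted p = 0.726).

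Rpl26, which lies at the exit of the peptide tunnel and is also known to bind p53 mRNA, had 1039, 962 and 961 CPM at 37 °C and 1182, 1185, 1132 and 1158 CPM at 42.5 °C. Rpl13 had 1267, 1248 and 1307 CPM at 37 °C and 1454, 1475, 1463 and 1540.1 CPM at 42.5 °C. In both, every heated library was above controls A to C. Rpl26 rose by 0.23 (SE 0.039, adjusted p = 0.000245) and Rpl13 by 0.21 (SE 0.038, adjusted p = 0.000339). With D the values were 0.07 and 0.08 (adjusted p = 0.741 and 0.683). Rpl14, Rpl37a, Rpl21 and Rpl22 completed the large subunit genes that were higher, with log2 fold changes of 0.17 to 0.19.

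Rpl36 was the gene that fell. It had 402, 379.9 and 370.3 CPM in 37 °C replicates A to C (604 CPM in D) and 353, 369, 359.6 and 332 CPM at 42.5 °C. The heated libraries lay below the controls, though 369 and 370.3 CPM nearly touched. The log2 fold change was -0.13 (SE 0.043, adjusted p = 0.025). This call was lost without 37 °C replicate A (adjusted p = 0.135), without 37 °C replicate B (0.0568) and without 42.5 °C replicate D (0.0648). With 37 °C replicate D added the value was -0.31 (adjusted p = 0.149). Rpl3, a protein that reaches toward the peptidyl transferase centre, had 1957, 1953 and 1872 CPM at 37 °C and 1889.7, 1872, 1921 and 1843 CPM at 42.5 °C, and its log2 fold change of -0.04 did not pass (adjusted p = 0.373). With library totals as the scaling Rpl3 was called lower, at -0.12 (adjusted p = 0.0215). Rpl28, at 273, 291 and 272 CPM and then 268, 293, 274 and 294 CPM, had a log2 fold change of 0.01 (adjusted p = 0.867), and Rpl17, Rpl27 and Rpl31 did not pass either.

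The small subunit gave 13 higher genes and 0 lower of 15, with a median of 0.178. Rps27a, which is made as a fusion with ubiquitin, led this group. It had 1141, 1058 and 1166 CPM in 37 °C replicates A to C (1861 CPM in D) and 1357, 1334, 1326 and 1436 CPM at 42.5 °C. All heated libraries were above A to C and below D, and the log2 fold change was 0.28 (SE 0.043, adjusted p = 0.00012). With D it was 0.07 (adjusted p = 0.79).

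Rps7 and RPS14, named after their values were seen, each rose by 0.23 (adjusted p = 0.00046 and 0.000815), and with D the values were 0.09 and 0.01 (adjusted p = 0.639 and 0.983). Rpsa, also described as a laminin receptor, had 1913, 1759.7 and 1888 CPM at 37 °C and 2154, 1971, 2014 and 2053 CPM at 42.5 °C, without overlap. It rose by 0.14 (SE 0.042, adjusted p = 0.0157), a call lost without 37 °C replicate B (adjusted p = 0.104) and with library totals (adjusted p = 0.235), and with D the value was -0.02. Rps4x, the X-linked form of S4, had 1937, 1915 and 2091 CPM at 37 °C and 2144, 2275, 2293 and 2294 CPM at 42.5 °C. It rose by 0.18 (SE 0.042, adjusted p = 0.00323). The call was lost with library totals (adjusted p = 0.0532), and with D the value was 0.01.

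Rps27l, a paralog of Rps27 known as a p53 target, had the fewest counts of the 30 genes tested, which is not a comparison of levels. Its 94.6, 86.4 and 94.7 CPM at 37 °C became 111, 110.2, 106 and 96.3 CPM at 42.5 °C, again without overlap. It rose by 0.20 (SE 0.056, adjusted p = 0.0101), and this was lost without 37 °C replicate B (adjusted p = 0.0696) and with library totals (adjusted p = 0.0899), and with D the value was 0.02. Rps26, which lines the mRNA exit channel, had 203, 223 and 219 CPM at 37 °C and 222, 243, 245 and 235 CPM at 42.5 °C, so the groups overlapped. Its log2 fold change of 0.13 (SE 0.046, adjusted p = 0.0369) did not pass without 37 °C replicate A or C or without 42.5 °C replicate B or C, nor with library totals (adjusted p = 0.389), and with D it was -0.01. Rps2, which lies at the mRNA entry channel, did not pass, with 3144, 2988 and 2833 CPM at 37 °C, 3207, 2993, 3156 and 3127 CPM at 42.5 °C and a log2 fold change of 0.06 (adjusted p = 0.305), and neither did Rps20 (0.06, adjusted p = 0.288).

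**Figure D3:**
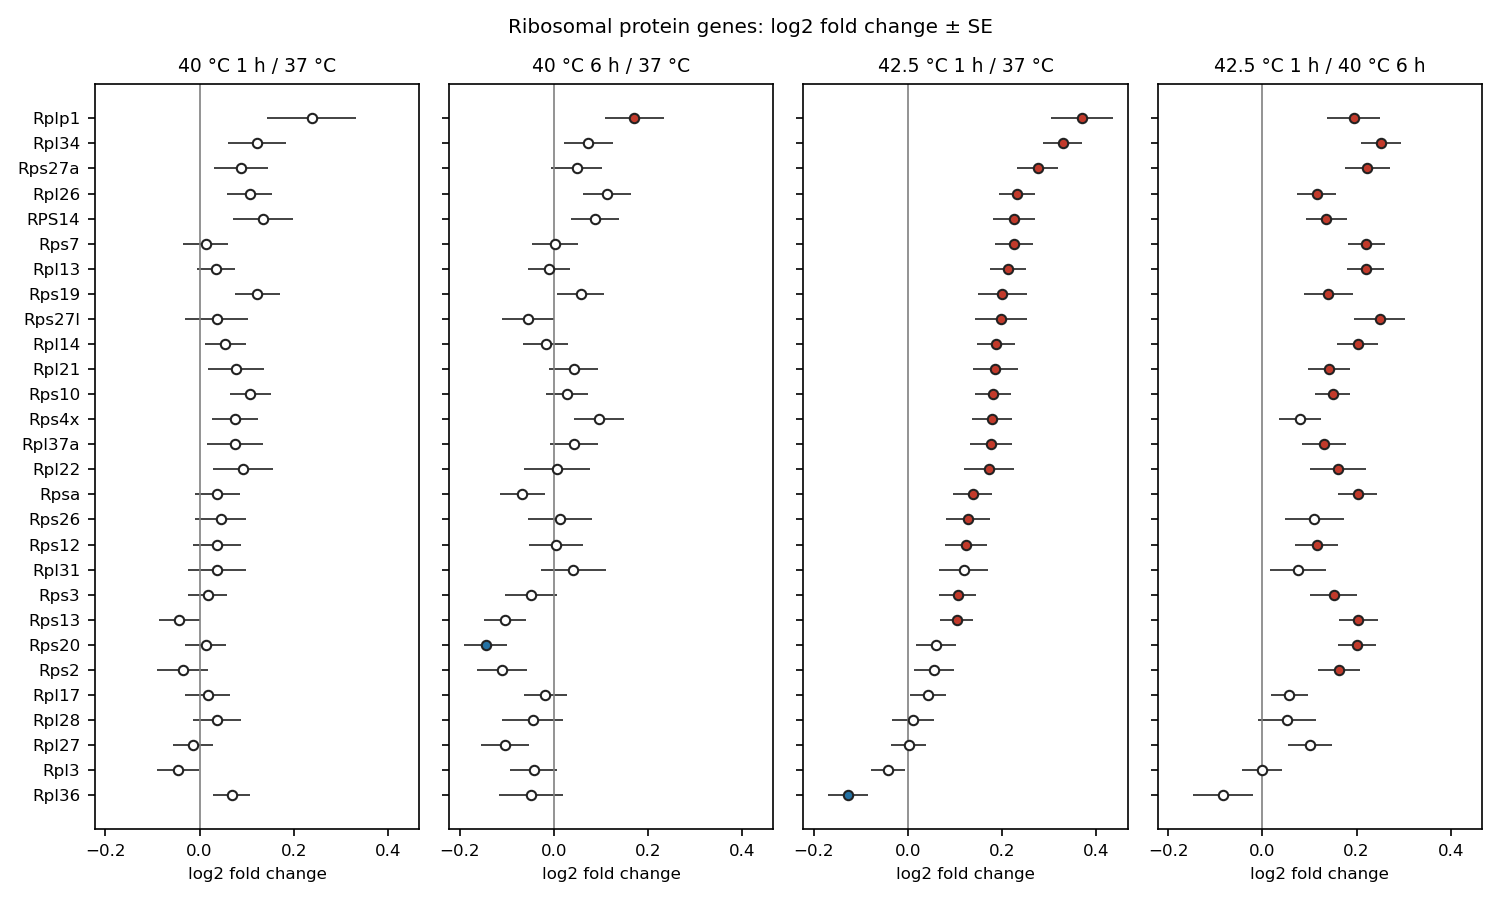
Log2 fold change (x axis, bars are ± SE) of 28 tested ribosomal protein genes (y axis) in 4 comparisons, one per panel, with red points for genes that were higher, blue for lower (adjusted p under 0.05) and white for genes that did not pass. The panels hold 0 filled points for 40 °C for 1 h against 37 °C, 2 for 40 °C for 6 h against 37 °C, 21 for 42.5 °C against 37 °C and 20, all red, for 42.5 °C against 40 °C for 6 h.

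After 1 h at 40 °C the ribosomal protein genes stayed close to the controls. In the fit without pairing, 0 of 30 genes were higher and 0 lower, while 1.07% of 10494 genes were higher and 0.572% lower. The count past 1.5-fold was 0 of 30, against 0.334% of all genes. At an unadjusted p under 0.05, edgeR gave 4 genes higher and 0 lower, against 7.98% and 6.85% of all genes. DESeq2's adjusted p called 0 of the 30, against 1.31% of all genes higher and 0.658% lower. The median log2 fold change was 0.038 and the range -0.046 to 0.238, with 26 of 30 values above 0, against 50.1% of all genes. In all 30 genes the heated libraries overlapped with the 3 controls, while 6.8% of all genes lay above the controls without overlap and 6.65% below.

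The letters were taken to pair these libraries with the controls, since every same-letter pair deviated together (r = 0.188 to 0.273 across genes). At 42.5 °C against 37 °C the same correlations were 0.04 to 0.153. Heated replicate D has no control of its letter here, so in a fit with the letter as a block the difference rests on letters A to C. In that fit, 4 of 30 genes were higher at 40 °C for 1 h and 0 lower, against 3.63% and 2.41% of all genes. They were Rplp1 by 0.16 (adjusted p = 0.00146), Rps19 by 0.10 (adjusted p = 0.0311), Rpl26 by 0.08 (adjusted p = 0.0453) and Rps10 by 0.08 (adjusted p = 0.0481), in edgeR's test. Rplp1 had 459, 462, 600.2 and 611 CPM in this group, against 422, 427 and 507 CPM in controls A to C. Within the letters A, B and C the heated library was the higher one each time, while across letters the groups overlapped. Without the block the log2 fold change of Rplp1 was 0.24 (adjusted p = 0.258, SE 0.095). With D added to the controls and no block, the median of the 30 genes was -0.123 and all 30 values were below 0. That fit called 0 of the 30 genes, and of all genes 0.0191% higher and 0.0191% lower.

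After 6 h at 40 °C few of these genes passed, in a comparison in which many others did. The sources used here do not give the time at which the controls were collected. Heat and added hours in culture therefore cannot be told apart in any comparison of 6 h at 40 °C with the controls. Of 30 genes, 1 was higher, 2 were lower and 27 did not pass, while 14.7% of 10499 genes were higher and 14.8% lower. A fold of at least 1.5 was reached by 0 of 30 and by 3.11% of all genes. The median was -0.004, with 15 values above 0 and 15 below. With D added to the controls, 0 genes were higher and 0 lower, against 5.42% and 5.32% of all genes in the same fit. All 30 values were then below 0 and the median was -0.178.

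Rps20, a small subunit protein, was among those that fell. It had 437, 404 and 441 CPM at 37 °C and 385, 394, 389 and 379.5 CPM after 6 h, with all heated libraries lower. The difference from the controls, on the log2 scale, was -0.15 (adjusted p = 0.0234, SE 0.046). With D it was -0.31 (adjusted p = 0.138). Rplp1 was the gene that rose, from 422, 427 and 507 CPM to 512, 507, 475 and 546 CPM, by 0.17 (SE 0.062, adjusted p = 0.0461) with overlapping groups, and with D its value was -0.14.

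These 3 calls were fragile. The count of lower genes became 0 without 37 °C replicate A or 40 °C for 6 h replicate D, 1 without 37 °C replicate B or C or 6 h replicate C, and 4 without 6 h replicate A. Rplp1 no longer passed without 37 °C replicate A or B or without 6 h replicate A, B or D. It did not pass with library totals (adjusted p = 0.0691) or in 1 fit over all 4 groups (adjusted p = 0.151) either.

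The heated groups were then compared with each other, without any control library. When 42.5 °C was held against 6 h at 40 °C, 22 of 30 ribosomal protein genes were higher at 42.5 °C (73.3%) and 0 lower, while 22.5% of 10427 genes were higher and 24.5% lower. Among the 2553 abundant genes 35.8% were higher and 18.2% lower. The 22 were 13 of the 15 small subunit and 9 of the 15 large subunit genes. A fold of at least 1.5 was reached by 0 of the 30 and by 8.25% of all genes. The median was 0.15 on the log2 scale, a 1.11-fold difference, and in 16 genes all 42.5 °C libraries lay above all 40 °C libraries, as in 20.5% of all genes. With library totals as the scaling, 14 were higher and 0 lower, against 15.1% and 30.5% of all genes. Temperature and time both differ between these groups, so their parts cannot be told apart.

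Rpl34, with 941, 970.1, 888 and 992 CPM after 6 h at 40 °C, lay below its levels at 42.5 °C in every library. It differed by 0.25 (SE 0.043, adjusted p = 0.000141) and Rps27l by 0.25 (adjusted p = 0.00126). Rps20, Rpsa and Rps13 each differed by 0.20 (adjusted p = 0.000631, 0.00082 and 0.000688) and Rps2 by 0.16 (adjusted p = 0.00628). Rpl36 had a difference of -0.08 that did not pass (adjusted p = 0.304).

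At equal time, 42.5 °C for 1 h gave 8 higher genes and 1 lower gene of 30 relative to 40 °C for 1 h, against 16.4% of 10441 genes higher and 19.6% lower. Among the 2553 abundant genes 27.8% were higher and 15.4% lower. In this fit the share of higher genes among the 30 was thus close to that of this set. The set holds all genes from 95.4 CPM upward, the 30 included, and is not matched to their levels. A fold of at least 1.5 was reached by 0 of 30 and by 5.27% of all genes. The median was 0.092 and the range -0.195 to 0.213, with 28 of the 30 values above 0, against 50.5% of all genes. The higher genes included Rps7, Rps13, Rps27a, Rpl13, Rpl14, Rpl26 and Rpl34, with log2 differences of 0.13 to 0.21. Each of these had all 4 libraries at 42.5 °C above all 4 at 40 °C, as did 16.3% of all genes. With library totals, 4 genes were higher, against 9.28% of all genes, and with DESeq2's test 11, against 15.3%. TMM factors computed without the ribosomal protein genes gave 10, against 17.8%, and 1 fit over all 4 groups gave 10, against 17.5%.

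Rpl36 was lower here too. It had 409.8, 402, 395 and 403 CPM after 1 h at 40 °C and 353, 369, 359.6 and 332 CPM at 42.5 °C. The groups were separate, and the log2 difference was -0.20 (SE 0.039, adjusted p = 0.00118). This comparison does not use the control libraries, and 1 gene was lower whichever single library was left out.

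Within 40 °C, 6 h against 1 h gave 0 higher and 3 lower genes of 30, where 9.45% of 10439 genes were higher and 9.04% lower, and 12.5% of the abundant genes were lower. The share of lower genes was thus near that of other genes. A fold of at least 1.5 was reached by 0 of 30 and by 1.28% of all genes. Rps20 was one of the 3 (-0.16, SE 0.042, adjusted p = 0.0166), and in each of the 3 all 6 h libraries lay below all 1 h libraries, as in 10.3% of all genes. The median of the 30 was -0.059, with 26 values below 0, against 49.8% of all genes. The count of lower genes was 1 without 40 °C for 1 h replicate A, B or C or without 6 h replicate C or D.

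**Figure D4:**
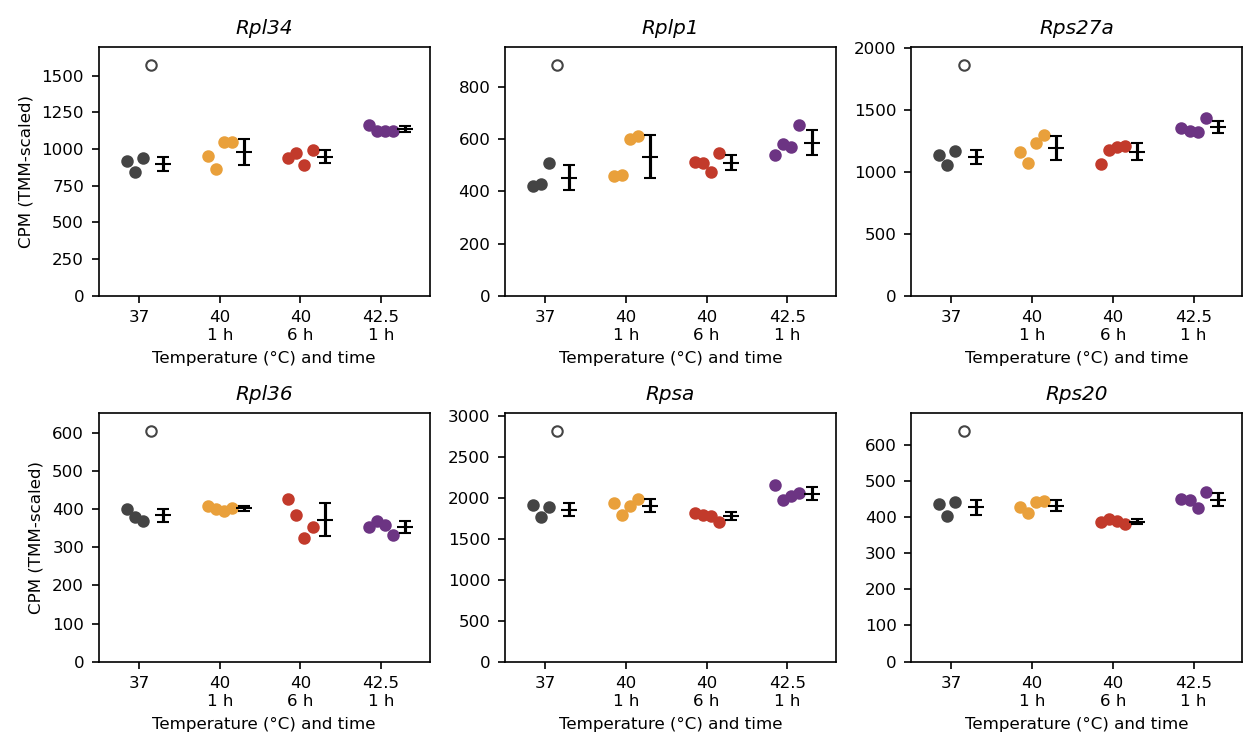
Levels (CPM scaled by TMM, y axis) of Rpl34, Rplp1, Rps27a, Rpl36, Rpsa and Rps20 in each library by treatment (x axis), with bars for mean ± SD taken without 37 °C replicate D, which is drawn as an open circle. Rpl34 and Rps27a are highest at 42.5 °C apart from replicate D, Rpl36 is lowest at 42.5 °C on average, and Rps20 is lowest after 6 h at 40 °C.

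Replicates of these genes agreed closely. The median coefficient of variation of the 30 genes was 4.67% at 37 °C without D, 4.92% after 1 h at 40 °C, 4.75% after 6 h and 3.49% at 42.5 °C. Rplp1 after 1 h at 40 °C, with 15.7%, was the most variable.

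Other genes of translation were followed as lists. Their counts stand beside the same shares of all genes tested as above, which were 20.8% higher and 22.3% lower at 42.5 °C and 14.7% higher and 14.8% lower after 6 h at 40 °C, and several of the counts lie near these shares. With D added to the controls the shares of all genes at 42.5 °C were 6.82% and 11.4%, and with library totals 11.5% and 31.4%. After 6 h at 40 °C they were 5.42% and 5.32% with D, and 12.9% and 16.6% with library totals. Of 29 further genes whose mRNAs are counted among TOP mRNAs, 19 were found and tested. At 42.5 °C, 10 were higher than at 37 °C and 1 lower, with a median of 0.102, but 6 higher and 4 lower with library totals as the scaling, and 0 higher and 1 lower with D added to the controls. Rack1, a scaffold on the small subunit, had 1154, 1123 and 1125 CPM at 37 °C (1515 CPM in D) and 1328, 1272, 1296 and 1308 CPM at 42.5 °C. All heated libraries were above A to C, and it rose by 0.19 (SE 0.036, adjusted p = 0.000514), or by 0.09 with D, which did not pass (adjusted p = 0.542). The initiation factor subunit Eif3f rose by 0.21 (adjusted p = 0.000498), the chaperonin subunit Cct4 by 0.25 (adjusted p = 0.000504), the elongation factor subunit Eef1b2 by 0.20 (adjusted p = 0.00136) and Btf3, a subunit of the nascent polypeptide-associated complex, by 0.21 (adjusted p = 0.00211). Eif4b was the gene that fell, by 0.19 on the log2 scale (adjusted p = 0.00257). Against 40 °C for 6 h, 11 of the 19 were higher and 3 lower, where 22.5% of all genes were higher and 24.5% lower, and 35.8% and 18.2% of the abundant ones.

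Eif4a2, an RNA helicase of translation initiation, moved apart from the ribosomal protein genes. It had 260.3, 251 and 260.5 CPM in 37 °C replicates A to C, 321, 300.5, 343 and 319.8 CPM after 1 h at 40 °C, 373, 488, 439 and 419 CPM after 6 h at 40 °C, and 249.8, 248, 251 and 265 CPM at 42.5 °C. Both 40 °C groups were above the controls and the 42.5 °C group overlapped with them. It rose by 0.32 (SE 0.046, adjusted p = 0.00261) after 1 h and by 0.74 (SE 0.068, adjusted p = 1.56e-06) after 6 h at 40 °C, and its value at 42.5 °C was -0.03 (adjusted p = 0.595). With D the values at 40 °C were 0.25 (adjusted p = 0.435) and 0.67 (adjusted p = 0.00431). Of the 19 genes in this list, 1 was higher after 1 h at 40 °C, and 2 were higher and 4 lower after 6 h. With D added to the controls these counts were 0 after 1 h, and 1 higher and 1 lower after 6 h, where 5.42% of all genes were higher and 5.32% lower. After 6 h, 1 gene was higher without 37 °C replicate A or B, and 2 were lower without 37 °C replicate C. Cct4 was the other that rose after 6 h, by 0.18, and Hnrnpa1 (-0.27), Cnbp (-0.21) and Eif3l (-0.22) were among those that fell.

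Of 26 translation initiation factors, 20 were found and tested. After 1 h at 40 °C 0 passed, with or without the letter as a block. After 6 h at 40 °C, 2 were lower (EIF3G and Eif2b2, by edgeR). Their number was 0 with D, 1 without 37 °C replicate A and 4 with library totals, where 16.6% of all genes were lower. At 42.5 °C, 6 were higher and 2 lower. This split turned to 2 higher and 6 lower with library totals and to 0 and 0 with D added to the controls. The count of lower factors was 1 without 37 °C replicate A or B or without 42.5 °C replicate B or C. At 42.5 °C, EIF3M rose by 0.21 (adjusted p = 0.000287), Eif2s1 by 0.20 (adjusted p = 0.00365), Eif2a by 0.18 (adjusted p = 0.0046) and EIF3C by 0.13 (adjusted p = 0.00848). Eif4h, a partner of the Eif4a helicases, fell by 0.26 on the log2 scale (adjusted p = 0.00112).

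Among 26 regulators of TOP mRNAs and of ribosome gene expression, 24 were found and tested. After 1 h at 40 °C 0 passed without pairing, and with the letter as a block Sp1 (0.29, adjusted p = 0.00428) and Yy1 (0.18, adjusted p = 0.0396) were higher. After 6 h at 40 °C, 4 were higher and 6 lower, and 3 and 4 with D added to the controls. At 42.5 °C, 4 were higher and 8 lower, with 2 and 12 under library totals, 1 and 2 with D added to the controls and 5 lower without 37 °C replicate B. Sp1, a transcription factor, had 31.4, 27.6 and 31.0 CPM at 37 °C, 42.3, 45.7, 41.1 and 41.6 CPM after 6 h at 40 °C and 46.0, 49.7, 45.8 and 55.4 CPM at 42.5 °C, and was higher in every library of both groups. It rose by 0.71 at 42.5 °C (SE 0.076, adjusted p = 3.28e-06) and by 0.51 after 6 h at 40 °C (adjusted p = 6.17e-05), and passed in both with D (adjusted p = 0.000466 and 0.00467). Myc, a transcription factor known to drive ribosome production, had 459, 474 and 484 CPM at 37 °C, 421, 356, 372 and 392 CPM after 6 h at 40 °C and 328, 352, 396 and 368 CPM at 42.5 °C. Its log2 fold changes were -0.30 (adjusted p = 0.000541) and -0.39 (adjusted p = 2.7e-05), and it passed in both with D (adjusted p = 0.0181 and 0.00321).

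Eif4ebp1, the inhibitor of cap binding that mTOR phosphorylates, fell after 6 h at 40 °C by 0.43 on the log2 scale (adjusted p = 1.43e-05), and its value at 42.5 °C was -0.09 (adjusted p = 0.0923). Yy1 rose by 0.42 after 6 h at 40 °C. Rps6kb2, an S6 kinase, fell in both groups, with log2 fold changes of -0.44 and -0.53. Rptor, a subunit of mTOR complex 1, and Gcn1 fell at 42.5 °C (-0.28 and -0.27). Larp1 did not pass in any comparison with 37 °C, with values of -0.09, -0.04 and -0.03 after 1 h and 6 h at 40 °C and at 42.5 °C.

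Of 25 chaperones of single ribosomal proteins and factors of late ribosome assembly, 23 were found and tested. After 1 h at 40 °C 0 passed without pairing, and with the letter as a block Nle1 was lower (-0.17, adjusted p = 0.00648). After 6 h at 40 °C, 1 was higher and 6 were lower (1 and 3 with D), and at 42.5 °C 7 were higher and 3 lower, which became 3 higher and 8 lower with library totals and 2 and 2 with D added to the controls. Nle1, which acts in large subunit assembly, had 126, 119 and 112 CPM at 37 °C, 90.7, 89.0, 90.8 and 79.7 CPM after 6 h at 40 °C and 106, 103, 102 and 102 CPM at 42.5 °C. It was lower in every library of both groups, with log2 fold changes of -0.45 (adjusted p = 3.29e-05) and -0.22 (adjusted p = 0.0017), and it passed in both with D (adjusted p = 0.00491 and 0.0232). Tsr2, the chaperone of Rps26, fell after 6 h (-0.25, adjusted p = 0.00247), as did Aamp (-0.22) and EIF6 (-0.23), and Heatr3 rose (0.31, adjusted p = 0.000819). At 42.5 °C Riok3 rose by 0.35 (adjusted p = 4.22e-05), Nmd3, the export adaptor of the large subunit, by 0.29 (adjusted p = 0.00112), Sbds, which helps to release EIF6 from the large subunit, by 0.52 (adjusted p = 0.00137) and Heatr3 by 0.18.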

How the data were processed

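The authors mapped trimmed reads to the hamster genome CHOK1GS_HDv1 with CLC Genomics Workbench and deposited whole-number counts per gene without normalization. The annotation release, the use of strand and the counting of reads with several mapping places are not given in the sources used here. Ribosomal protein genes have many near-identical pseudogenes, so their counts are uncertain where reads could be split between copies. The fold changes and p-values in the study's own table were not used.

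Groups were compared on the counts with edgeR 4.0.16 (quasi-likelihood test, filterByExpr, TMM) in R 4.3.3, fitted on all genes of the 2 groups, with Benjamini-Hochberg adjustment over all genes tested. Levels of single genes are CPM scaled by TMM factors computed over the 16 libraries. Sums over marker genes are CPM without these factors. The replicate letters were taken as pairs for 40 °C for 1 h and 37 °C, where all 3 same-letter correlations of deviations across 10317 genes were at least 0.188. For 42.5 °C and 37 °C these correlations were lower, at 0.04 to 0.153, though all were above 0. The letters were not taken as pairs there or in the other comparisons. Alternatives used DESeq2 1.42.0, other scaling, filters, controls and single libraries left out. The scripts were tested on simulated data.

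The gene list, the other lists and the naming rule were chosen with earlier results of these data known. Named were the 5 ribosomal protein genes with the lowest adjusted p in each direction and comparison with 37 °C, the 3 with the most and 3 with the fewest counts at 37 °C, the stalk protein, Rpsa, paralogs and the first 5 genes of each further list. Single values of some genes are not reported here, though counts and medians include them. The repeats are labelled biological, and p-values measure the spread between them.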

Additional observations from a re-analysis of the deposited data

Results flagged for a closer look

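In 60 groups of 4 libraries (the share of counts and the named genes), the gap of the highest or lowest library to its neighbour was divided by the range of the group. In 14 groups this ratio was above Dixon's critical value at the 95% level, which chance exceeds in about 1 group in 20.

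In 12 of them the library was 37 °C replicate D, always the highest of its group. It held 3.98% of counts in ribosomal protein genes against 2.83% to 2.87% in the other 3 controls. Its level was 2464 CPM for Rpl3 (others at most 1957 CPM), 3066 CPM for Rps4x, 2807 CPM for Rpsa, 1861 CPM for Rps27a, 1835 CPM for Rpl13, 1569.5 CPM for Rpl34, 1498 CPM for Rpl26, 636 CPM for Rps20, 604 CPM for Rpl36, 392 CPM for Rpl28 and 145 CPM for Rps27l. The remaining flagged groups were both at 42.5 °C, where replicate A was lowest for Rps4x (2144 CPM, others 2275 to 2294 CPM) and highest for Rpl34 (1164 CPM, others 1122 to 1125 CPM).

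Direct tests between heated groups with edgeR called some of the 30 genes. For 40 °C, 3 genes were lower after 6 h than after 1 h, against 9.04% of all genes and 12.5% of the abundant ones. At 42.5 °C, 8 genes were higher and 1 lower than after 1 h at 40 °C, against 27.8% and 15.4% of the abundant genes, and 22 were higher than after 6 h at 40 °C, against 35.8% of the abundant genes.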

How the results depend on the processing

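The number of ribosomal protein genes past 1.5-fold was 0 in all 6 comparisons under every alternative run. With D added to the controls, medians against 37 °C became -0.123 (40 °C, 1 h), -0.178 (40 °C, 6 h) and -0.005 (42.5 °C), and calls were 0 higher and 0 lower in each. Of all genes, these fits called, in that order, 0.0191% higher and 0.0191% lower, 5.42% and 5.32%, and 6.82% and 11.4%. The differences in share of counts with D, chosen after seeing the data, became -0.241, -0.344 and -0.153 percentage points. All 30 genes were below 0 at both 40 °C times, so that signs turned for 26 genes after 1 h, 15 after 6 h and 15 at 42.5 °C. Among the genes named by rule these were Rps4x (-0.11), Rps27l (-0.159), Rps26 (-0.107), Rpl28 (-0.103), Rpsa (-0.137) and Rplp1 (-0.07) after 1 h at 40 °C, Rplp1 (-0.135), Rps4x (-0.088) and Rps26 (-0.137) after 6 h, and Rps2 (-0.013), Rps26 (-0.011), Rpl28 (-0.114) and Rpsa (-0.022) at 42.5 °C.

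With library totals in place of TMM, 40 °C for 6 h gave 0 higher and 2 lower, against 12.9% and 16.6% of all genes, and Rps26 was -0.003. At 42.5 °C against 37 °C there were 10 higher and 2 lower, against 11.5% and 31.4% of all genes. The median was 0.1, Rps2 was -0.018 and Rpl28 -0.064. Against 40 °C for 1 h 4 were higher (median 0.035, 9.28% of all genes), and against 40 °C for 6 h 14 (median 0.096, 15.1% of all genes). One fit over all 4 groups gave 0 higher after 6 h at 40 °C and 0 lower at 42.5 °C, against 15.5% and 20.7% of all genes. Without a filter on low counts, 1 gene was higher after 1 h at 40 °C, against 1.53% of all genes. The cause was not tested.

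With the replicate letter as a block, 40 °C for 1 h gave 4 higher genes (Rps27l -0.001). In the comparisons whose letters were not taken as pairs, the lowest same-letter correlations were -0.074 to 0.04. There the block gave 0 higher and 2 lower after 6 h and 23 higher and 1 lower at 42.5 °C (Rpl28 -0.011) against 37 °C. It gave 0 higher and 3 lower for 6 h against 1 h, 11 higher and 1 lower for 42.5 °C against 40 °C for 1 h, and 23 higher for 42.5 °C against 40 °C for 6 h. The shares of all genes higher and lower in these block fits were, in that order, 14% and 14.4%, 21.7% and 23.2%, 11% and 11%, 17.9% and 20.8%, and 23.3% and 25.1%. At 42.5 °C, every library with a control of its letter correlated best with that control (3 of 3). In all block fits against 37 °C, heated replicate D had no such control and did not enter the difference.

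Leaving out single libraries gave 0 to 1 higher and 0 to 4 lower after 6 h at 40 °C, 16 to 22 higher and 0 to 1 lower at 42.5 °C, 1 to 4 lower for 6 h against 1 h, 6 to 12 higher for 42.5 °C against 40 °C for 1 h and 16 to 23 higher for 42.5 °C against 40 °C for 6 h. Of all genes, these fits called 10.2% to 16.1% higher and 9.67% to 16.1% lower after 6 h, 15.5% to 21.1% higher and 18% to 21.7% lower at 42.5 °C, 5.95% to 9.54% lower for 6 h against 1 h, 13% to 16.4% higher for 42.5 °C against 40 °C for 1 h and 19.2% to 21.9% higher against 40 °C for 6 h. The sign turned within the range of Rps27l (-0.005 to 0.102), Rpl28 (-0.01 to 0.069) and Rps2 (-0.074 to 0.002) after 1 h at 40 °C, of Rps26 (-0.038 to 0.08) and Rpl28 (-0.104 to 0.016) after 6 h, and of Rpl28 (-0.007 to 0.043) at 42.5 °C.

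Depth was ample for the 30 genes tested, and the 3 paralogs had at most 1 count in any library.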
